A study of Mus musculus with 7 samples.

Results

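Neutrophil effector genes are 8 genes of innate immune cells, namely Retnlg, Mmp9, Il1b, Alox5ap, Slfn4, Pygl, Ccl6 and 1100001G20Rik, among 11753 genes measured in single cells of a mouse breast cancer model. They were named by symbol, all 8 were found, and they are called members below. They were chosen by their measured levels in these same cells, which earlier results had placed higher in cells sorted from blood than in tumour cells, so that difference is described here and not tested. The mice carried the polyoma middle T oncogene (PyMT), a transgene that drives mammary tumours, and the labels give no strain, age, promoter or number of animals.

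Single cells were sorted by surface E-cadherin (Ecad), the adhesion protein of epithelial cells encoded by Cdh1. Of the 2 experiments of the study, experiment (ii) held 4 populations in 4 libraries. BEneg and BEpos wells received cells labelled as circulating tumour cells without and with Ecad, and TEneg and TEpos wells received solid tumour cells without and with Ecad. All came from PyMT mice, no tumour-free animals were analysed here, and BEpos was present in library 1 alone. Wells with at least 500 transcripts were used, which left 60 BEneg, 20 BEpos, 69 TEneg and 71 TEpos cells, 220 of 312 wells. The method was CEL-seq, which counts each RNA molecule at its 3′ end through a molecular barcode, so values are given as transcripts per 10000 of a library's summed cells, with no division by gene length.

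Neutrophils are short-lived granulocytes that leave the bone marrow with granules of proteases and antimicrobial proteins, and circulate in blood. They answer infection and injury by releasing those granules, by making lipid mediators such as leukotriene B4, and by secreting cytokines of the interleukin 1 family. In PyMT mice and other mammary tumour models they are known to increase in blood as tumours grow. Several of their genes are shared with monocytes, which come from the same marrow progenitors.

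The sequencing depth differed between populations. The median used cell held 819 transcripts among BEneg, 3803 among BEpos, 1603 among TEneg and 2064 among TEpos wells, and wells of the 4 libraries held 63117 to 210520 transcripts in all. One TEneg well of library 2 held 61227 transcripts. Of the 96 cell barcodes, 72 occurred in all 4 libraries, since barcodes mark wells of a plate. Values of n count libraries, which the labels do not tie to separate animals, so errors and p-values measure only the spread between libraries. Counting intervals are exact Poisson or binomial intervals at 95% and cover counting error only.

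The label of the genes was set against markers of blood cells. Of 26 mature neutrophil genes 24 were measured, and together they stood at 808 ± 270 transcripts per 10000 in BEneg, 224 in BEpos, 46.3 ± 12.3 in TEneg and 39.6 ± 6.62 in TEpos (SD, n = 4 libraries, 1 for BEpos). S100a8 and S100a9, which encode the calcium-binding protein pair of neutrophil cytosol, made up most of it, with 321 ± 126.02 and 349 ± 123 per 10000 in BEneg. The receptor genes Cxcr2, Fpr1 and Fpr2 had 32, 18 and 41 transcripts in BEneg, Csf3r had 5, and Clec4d and Stfa2 had 0. Neutrophil granule genes, 16 of 20 measured, summed to 92.2 ± 24.1 in BEneg, 23.8 in BEpos, 97.04 ± 49.2 in TEneg and 140.2 ± 12.5 in TEpos. Most of that sum in TEneg and TEpos was Lcn2, which encodes lipocalin 2, at 84.5 ± 40.8 and 124 ± 11.4. In BEneg Lcn2 was the highest gene of the list at 32.04 ± 9.19, but the others together held more. Other granule genes ran from 82 Hp, 64 Cyba and 56 Mmp8 transcripts in BEneg to 8 Prtn3, 5 Camp and 1 Ctsg, and the 46 Ngp transcripts lay in 5 cells. Monocyte genes were present too. Of 20, 16 were measured, with none at 0 in BEneg, and their sum per 10000 ranged from 193 to 336 over BEneg libraries, 5.50 to 21.03 over TEneg libraries and 7.56 to 15.3 over TEpos libraries, and was 43.4 in BEpos. The part of monocytes in the BEneg levels below was not tested. Epithelial genes ran from 19.2 to 44.5 per 10000 in BEneg, 115 to 226 in TEneg and 243 to 422 in TEpos, with 4.94 in BEpos. The label on the BEneg wells says tumour cell, while the listed neutrophil and monocyte genes summed higher there than the listed epithelial genes.

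Summed over the 8 genes, BEneg libraries 1 to 4 held 196, 199, 114 and 184 transcripts per 10000, a mean of 173 ± 40.02, and the BEpos library held 36.2. TEneg libraries held 3.77, 1.83, 3.30 and 2.33 (mean 2.81 ± 0.887), and TEpos libraries held 4.37, 2.93, 4.32 and 4.02 (mean 3.91 ± 0.673). The mean level was 5.95 higher in BEneg than in TEneg on the log2 scale, and 5.47 higher than in TEpos. Transcripts pooled over libraries, which weight the large TEneg well more, gave a ratio of 75.4 for BEneg over TEneg (counting interval 55.8 to 104) and 48.4 for BEneg over TEpos (38.1 to 62.3). For each of the 8 genes, all 4 BEneg sums lay above all 4 TEneg sums and above all 4 TEpos sums. Among the 490 genes that passed the filter on low counts, 19.4% lay so above TEneg and 21.8% above TEpos. All 8 passed this filter through their BEneg sums, and the contrast had been used to choose them, so nothing is read from that count.

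**Figure D1:**
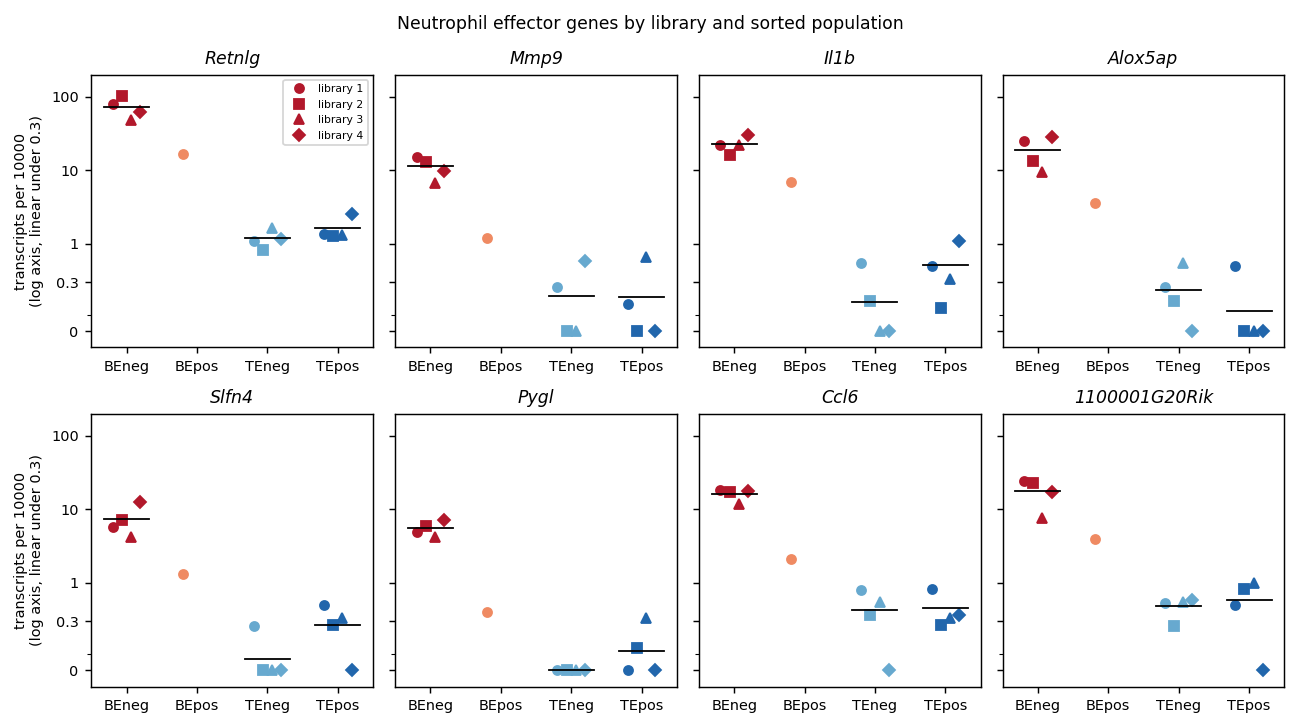
Level of each gene in every library (symbols) of BEneg, BEpos, TEneg and TEpos, in transcripts per 10000 on an axis that is logarithmic above 0.3 and linear below it, with bars at the means of 4 libraries. For all 8 genes the 4 BEneg libraries sit above the single BEpos library and above all TEneg and TEpos libraries.

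Retnlg was the most abundant of the 8 genes. It encodes resistin-like gamma, a secreted cysteine-rich protein of mouse bone marrow and neutrophils, and lies on chr16:48872621-48874496 of GRCm38, plus strand. BEneg libraries 1 to 4 held 80.1, 103, 47.8 and 61.02 Retnlg transcripts per 10000, against 1.08, 0.822, 1.65 and 1.17 in TEneg and 1.35, 1.26, 1.33 and 2.56 in TEpos. The groups did not overlap, the highest BEneg library was library 2, and BEpos stood between them at 16.7. Retnlg took 43.9% of all member transcripts in BEneg (582 of 1326). The rest of the resistin family was nearly absent from the same cells: Retn had 1 transcript in BEneg, and Retnla and Retnlb had 0.

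Mmp9 encodes gelatinase B, a protease that cuts denatured collagen and is stored in tertiary granules of neutrophils (chr2:164940780-164955850, plus strand). It stood at 15.2, 13.1, 6.78 and 9.89 transcripts per 10000 in BEneg libraries 1 to 4, 1.201 in BEpos, 0.269, 0, 0 and 0.583 in TEneg and 0.168, 0, 0.664 and 0 in TEpos. Every BEneg library lay far above the tumour libraries, where 2 TEneg and 3 TEpos transcripts were counted in all. Of 13 metalloproteinase and inhibitor genes on a list of its relatives, 11 were measured and 5 were at 0 in BEneg. Mmp8, neutrophil collagenase, was the highest of them at 7.01 ± 4.29 per 10000 in BEneg, against 0.0456 ± 0.0912 in TEneg and 0.112 ± 0.137 in TEpos. The inhibitor Timp2 stood at 2.66 ± 1.28 in BEneg, 3.84 ± 1.74 in TEneg and 4.21 ± 2.47 in TEpos, gaps smaller than the tumour SDs. Timp1 had no transcript in BEneg.

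Il1b and Ccl6 encode secreted signals. Interleukin 1 beta, made as a precursor that caspase-1 cleaves, starts fever and inflammation (Il1b, chr2:129364570-129371139, minus strand). Its level was 22.2, 15.9, 22.1 and 29.8 per 10000 in BEneg libraries 1 to 4 and 6.87 in BEpos, against 0.538, 0.183, 0 and 0 in TEneg and 0.504, 0.139, 0.332 and 1.10 in TEpos. Library 4, where the summed level was below those of libraries 1 and 2, was the highest BEneg library for Il1b. Partners of Il1b were far lower in level in BEneg: the adaptor Myd88 stood at 3.13 ± 0.961, Casp1 at 2.003 ± 0.849 and the receptor chain Il1rap at 1.54 ± 0.799 per 10000, while Il1r2, a decoy receptor of neutrophils, had 4 transcripts. For Casp1 the TEneg and TEpos levels were like those of BEneg, at 1.41 ± 1.06 and 2.02 ± 0.742.

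Ccl6, a CC chemokine of mouse myeloid cells, drew 18.6, 17.5, 11.8 and 18.004 transcripts per 10000 in BEneg and 2.14 in BEpos, against 0.807, 0.365, 0.550 and 0 in TEneg and 0.840, 0.279, 0.332 and 0.365 in TEpos. BEneg libraries 1, 2 and 4 lay close together and library 3 lay below them. Of 12 other CC chemokine and receptor genes 11 were measured. Ccr2, the receptor that marks classical monocytes, stood at 8.16 ± 3.27 in BEneg with 0 transcripts in TEneg and TEpos. Ccr1, a chemokine receptor of neutrophils and monocytes, stood at 4.37 ± 1.59 in BEneg, 0.291 ± 0.583 in TEneg and 0.0840 ± 0.168 in TEpos.

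Alox5ap and Pygl act in metabolism. The membrane protein FLAP, the product of Alox5ap, hands arachidonic acid to 5-lipoxygenase for leukotriene synthesis (chr5:149264767-149288153, plus strand). Alox5ap stood at 25.1, 13.5, 9.31 and 27.98 transcripts per 10000 in BEneg libraries 1 to 4 and 3.62 in BEpos, against 0.269, 0.182, 0.550 and 0 in TEneg and 0.504, 0, 0 and 0 in TEpos. It spread more between BEneg libraries than any other member except Slfn4, with a coefficient of variation of 47.4%. The enzymes it serves were barely seen: Alox5, which encodes 5-lipoxygenase, and Lta4h, which encodes the hydrolase that makes leukotriene B4, had 4 transcripts each in BEneg, against 138 of Alox5ap. Cotl1, an actin-binding protein that also binds 5-lipoxygenase, stood at 6.82 ± 4.28 in BEneg, 2.22 ± 1.10 in TEneg and 1.34 ± 0.643 in TEpos.

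Pygl encodes liver-type glycogen phosphorylase, which frees glucose 1-phosphate from glycogen (chr12:70190811-70231488, minus strand). Its levels were the lowest of the 8, at 4.90, 5.93, 4.22 and 7.19 transcripts per 10000 in BEneg and 0.401 in BEpos, and TEpos libraries held 0, 0.139, 0.332 and 0. TEneg had no Pygl transcript in 69 cells, while BEneg had 40 in 60 cells, which is at least 33.3 times the level that 3 counts over all TEneg cells would give. The other phosphorylase genes were all but silent in BEneg, with 1 Pygm transcript and 0 of Pygb. Gyg, which encodes the glycogenin that primes glycogen, stood at 2.98 ± 1.42 in BEneg, 0.406 ± 0.551 in TEneg and 0.498 ± 0.460 in TEpos.

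Slfn4 belongs to the Schlafen family, which in mouse is tied to myeloid and lymphoid cell state. It reached 5.72, 7.13, 4.23 and 12.6 transcripts per 10000 in BEneg libraries 1 to 4 and 1.34 in BEpos, against 0.269, 0, 0 and 0 in TEneg and 0.504, 0.279, 0.332 and 0 in TEpos. BEneg and tumour libraries did not overlap, and library 4 was the highest. Slfn1 had a like pattern at 4.33 ± 1.62 in BEneg, 0.169 ± 0.280 in TEneg and 0.0420 ± 0.0840 in TEpos. Slfn5 differed little in level, at 3.22 ± 0.569, 2.81 ± 0.556 and 2.52 ± 1.22 in BEneg, TEneg and TEpos.

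1100001G20Rik, named Wfdc21 in the GENCODE annotation, encodes a small secreted protein with a whey acidic protein (WAP) domain. BEneg libraries 1 to 4 held 24.4, 23.05, 7.61 and 17.2 transcripts per 10000 and BEpos held 3.91, against 0.538, 0.274, 0.550 and 0.583 in TEneg and 0.506, 0.837, 0.997 and 0 in TEpos. Library 3 was low among the BEneg libraries and still more than 7 times the highest tumour library. Of 9 other WAP domain genes 6 were measured. Wfdc17 stood at 30.5 ± 12.1 in BEneg, 1.42 ± 1.32 in TEneg and 1.91 ± 1.29 in TEpos, and the protease inhibitor Slpi at 15.7 ± 3.29, 6.15 ± 6.45 and 2.97 ± 1.88 in BEneg, TEneg and TEpos.

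Slfn4, Ccl6 and 1100001G20Rik lie within 577 kb of chromosome 11 (GRCm38). Slfn4 spans chr11:83175186-83190216 on the plus strand, Ccl6 chr11:83587882-83593087 on the minus strand and 1100001G20Rik chr11:83746940-83752642 on the plus strand. The span holds 20 protein-coding genes of the GENCODE annotation, of which 12 had a measured row, and 6 of these had at least 10 transcripts in BEneg. Wfdc17 and the chemokine gene Ccl9 (3.91 ± 2.72 in BEneg, 0.8294 ± 0.706 in TEneg and 0.0830 ± 0.166 in TEpos) were, like the 3 members, highest in BEneg. Wfdc18, between Wfdc17 and 1100001G20Rik, was lowest in BEneg, at 10.5 ± 3.90 in BEneg, 56.9 ± 23.5 in TEneg and 136 ± 55.2 in TEpos. Wfdc18 was also called lower in TEneg than in TEpos (log2 fold change -1.13, edgeR adjusted p = 0.0044). Ccl3 and Ccl4, chemokine genes next to Ccl6, had no transcript in BEneg. High levels in BEneg were therefore not shared by all genes of the span.

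**Figure D2:**
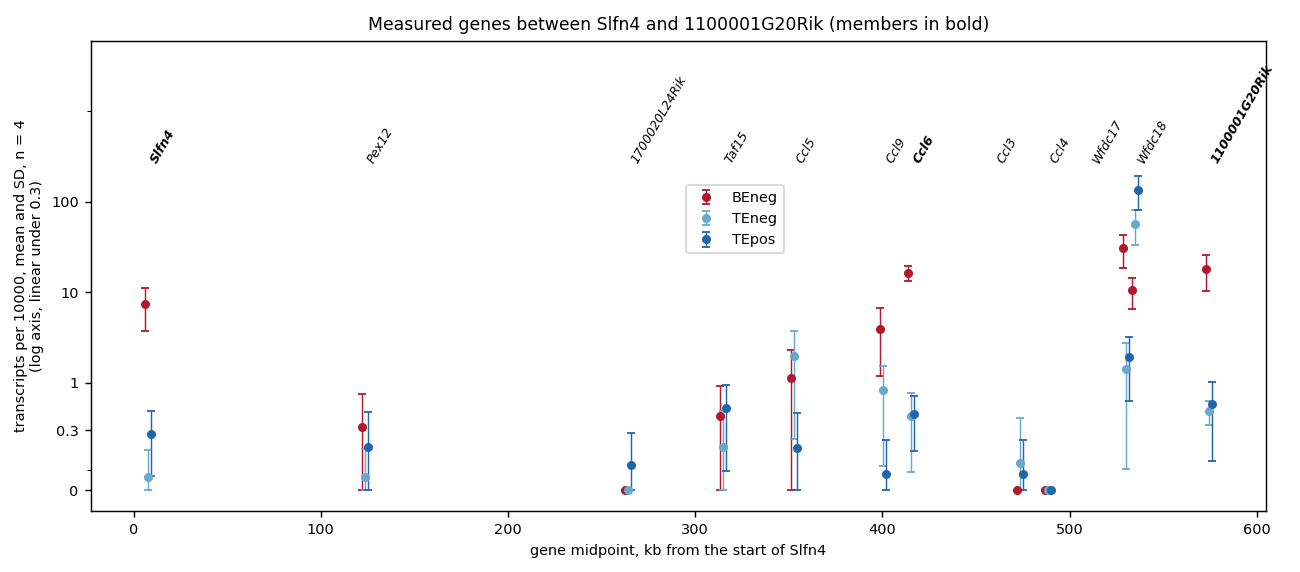
Mean level and SD over 4 libraries (transcripts per 10000, logarithmic axis above 0.3) of the 12 measured genes from Slfn4 to 1100001G20Rik in BEneg, TEneg and TEpos, placed by the distance of the gene's midpoint from the start of Slfn4 in kb; SD bars stop at 0. Slfn4, Ccl9, Ccl6, Wfdc17 and 1100001G20Rik are highest in BEneg, Wfdc18 is highest in TEpos, and Ccl3 and Ccl4 are at 0 in BEneg.

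Promoter sequences are shown for the 3 members whose window, from 250 bases before to 50 after the start in RefSeq (GRCm38.p6), held a searched motif of a factor known from myeloid genes. The windows are Slfn4 chr11:83174936-83175235 on the plus strand, Ccl6 chr11:83593038-83593337 on the minus strand and Retnlg chr16:48872358-48872657 on the plus strand, each read 5′ to 3′ on the strand of its gene, and capitals mark the matches.
Slfn4: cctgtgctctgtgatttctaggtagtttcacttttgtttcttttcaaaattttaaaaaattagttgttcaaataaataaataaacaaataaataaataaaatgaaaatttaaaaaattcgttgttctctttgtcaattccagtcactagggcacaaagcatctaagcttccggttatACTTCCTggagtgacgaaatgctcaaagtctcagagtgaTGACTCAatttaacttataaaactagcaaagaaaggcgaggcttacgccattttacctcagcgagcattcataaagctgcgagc
Ccl6: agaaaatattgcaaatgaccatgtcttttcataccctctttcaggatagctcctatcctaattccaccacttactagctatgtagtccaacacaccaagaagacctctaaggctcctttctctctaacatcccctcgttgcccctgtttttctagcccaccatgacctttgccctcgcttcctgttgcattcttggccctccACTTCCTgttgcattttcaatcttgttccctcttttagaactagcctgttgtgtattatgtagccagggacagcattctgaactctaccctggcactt
Retnlg: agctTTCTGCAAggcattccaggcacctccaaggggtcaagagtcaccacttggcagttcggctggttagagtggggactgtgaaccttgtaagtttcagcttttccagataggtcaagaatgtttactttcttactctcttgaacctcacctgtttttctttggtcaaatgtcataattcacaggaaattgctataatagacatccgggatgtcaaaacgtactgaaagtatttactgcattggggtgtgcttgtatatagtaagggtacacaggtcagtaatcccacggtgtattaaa
The letters searched on both strands were AGGAAGT for PU.1, TTGCNNAA for C/EBP and TGANTCA for AP-1, and a motif of NF-kB was searched too. The PU.1 letters, read on the opposite strand, stood 73 bases before the start in Slfn4 and 48 before it in Ccl6, and the AP-1 letters stood 34 before it in Slfn4. A C/EBP match began 246 bases before the start of Retnlg. Of 32851 windows of the same length, 9.35% held the PU.1 letters, 10.8% C/EBP, 7.81% AP-1 and 1.47% NF-kB. Windows of Il1b and Pygl held none of the 4, and those of Mmp9, Alox5ap and 1100001G20Rik were not used here. A match is a run of letters, not a measured site.

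Within BEneg, transcripts of several members were often seen in the same cell. Transcripts of at least 1 member were seen in 58 of 60 BEneg cells (96.7%, exact interval 88.5% to 99.6%), of at least 3 members in 50 (83.3%, 71.5% to 91.7%) and of at least 5 in 36 (60%). All 8 were seen in 5 cells and none in 2. BEpos cells had a transcript of at least 1 member in 17 of 20 and of at least 3 in 12. At least 3 members were seen in 2 of 69 TEneg cells (2.90%, 0.353% to 10.1%) and in 2 of 71 TEpos cells (2.82%, 0.343% to 9.81%). The mean share of BEneg cells with at least 3 members was 80.4 ± 16.95% over libraries. Each member alone was seen in 43.3% to 75% of BEneg cells. Cells with several members would be common from these shares alone, so no tie between the genes is read from the counts. The contrast with tumour cells had been used to choose the members.

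Since BEneg cells were the shallowest, detection was compared after thinning each cell to 500 transcripts. Retnlg was then expected in 62.4 ± 9.53% of BEneg cells, 34.01% of BEpos cells, 8.03 ± 3.59% of TEneg cells and 8.32 ± 3.90% of TEpos cells, against 75%, 65%, 18.8% and 29.6% before thinning. For Il1b the thinned shares were 61.7 ± 5.93% in BEneg, 25.96% in BEpos, 0.975 ± 1.13% in TEneg and 2.81 ± 2.65% in TEpos. Pygl, the least often seen, was expected in 29.4 ± 3.14% of BEneg cells and 1.38% of BEpos cells, and stood at 0 in TEneg and 1.63 ± 2.86% in TEpos. The keratin gene Krt8, a gene of epithelial cells, gave the reverse picture, at 8.61 ± 4.48% in BEneg, 0.570% in BEpos, 21.6 ± 7.62% in TEneg and 29.98 ± 3.68% in TEpos. The gap in detection between BEneg and tumour cells was present at equal depth for all 8 genes. They had been chosen on that contrast, so the gap is a description and not a test.

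**Figure D3:**
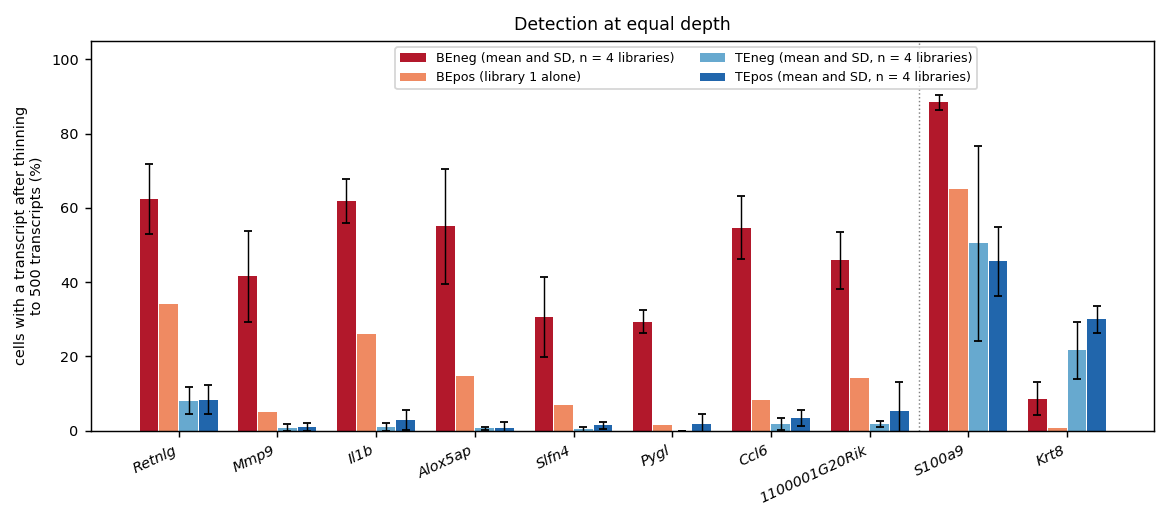
Share of cells in percent expected to show a transcript of each gene after thinning to 500 transcripts per cell, as mean and SD over 4 libraries for BEneg, TEneg and TEpos and as the value of library 1 for BEpos. BEneg has the tallest bar for each of the 8 members and for S100a9, and the shortest but one for Krt8.

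The 60 BEneg cells differed widely among themselves. Their summed member level ran from 0 through a median of 154 to a maximum of 698 transcripts per 10000, and cells of all 4 libraries were found at both ends. Retnlg was concentrated: 6 cells held 50.004% of its BEneg transcripts, and 1 cell held 85 of the 582. Il1b was spread more evenly, with 26.3% of its transcripts in its top 6 cells and at most 8 in a cell. Pygl and Slfn4 had a median of 0 over cells.

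Cell by cell, Retnlg with Mmp9 was the pair that varied together most closely. Of 32 BEneg cells with Mmp9, 31 also had Retnlg, and the levels had a Spearman correlation of 0.73 over 60 cells (0.46 to 0.84 within libraries). Retnlg with 1100001G20Rik gave 0.63 (0.43 to 0.79 within libraries). Mmp9 with Il1b gave 0.50 (0.11 to 0.80 within libraries) and Mmp9 with 1100001G20Rik 0.48 (0.27 to 0.77). Retnlg with Il1b gave 0.45 (0.29 to 0.71) and Mmp9 with Pygl 0.41 (0.095 to 0.60). Of the 28 pairs of members 6 were above 0.4, and the median was 0.28. The lowest was -0.03, for Alox5ap with Slfn4. Counts per cell were low and cells shared library and depth, so these coefficients are descriptions with no test, and weak ones are not read.

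**Figure D4:**
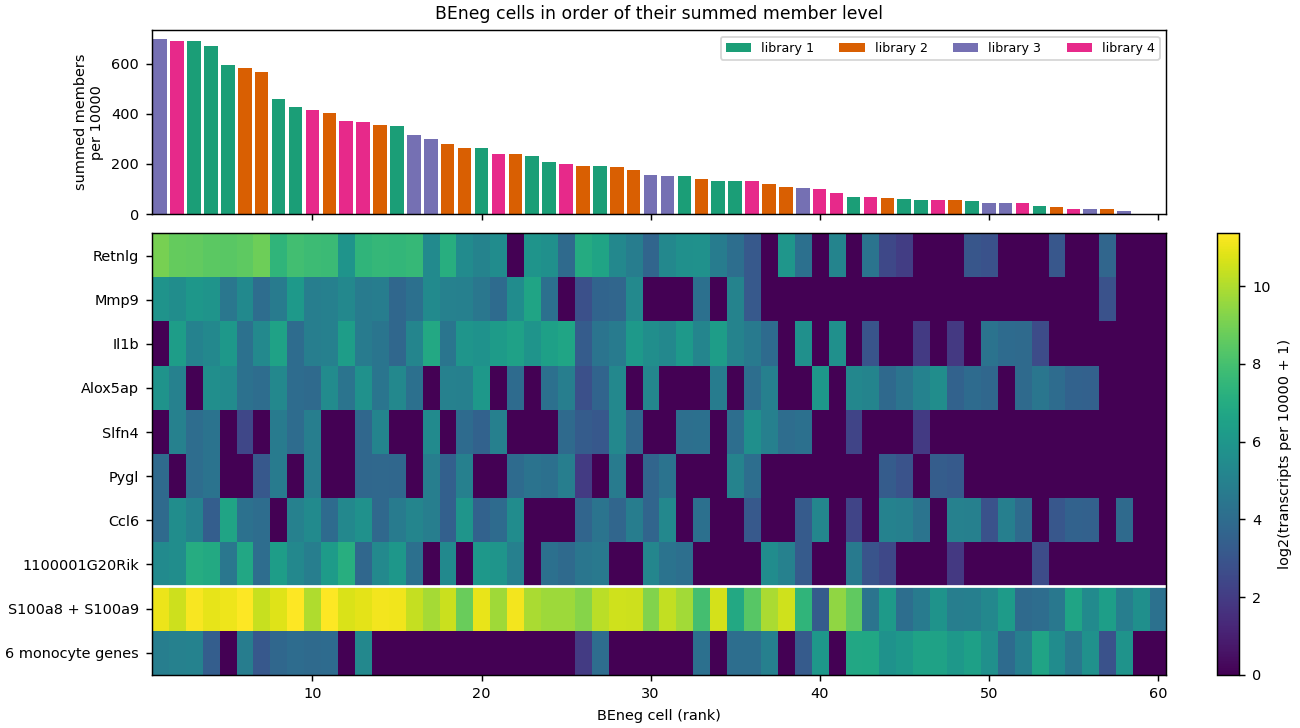
The 60 BEneg cells in order of summed member level (bars, transcripts per 10000, coloured by library) above a map of log2(transcripts per 10000 + 1) for the 8 members, S100a8 plus S100a9, and 6 monocyte genes. Retnlg and Mmp9 fade from left to right with S100a8 plus S100a9, while Alox5ap and Ccl6 continue into the cells at the right, where monocyte genes are high.

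Outside the 8 genes, S100a8 and S100a9 were nearest to them. Of 374 other genes seen in at least 20 BEneg cells, S100a8 (Spearman 0.85) and S100a9 (0.84) had the highest correlation with the summed member level, followed by S100a11 (0.72), the granule proteoglycan gene Srgn (0.65) and Rac2 (0.63), a GTPase of the neutrophil oxidase. The lowest were Rpl13 (-0.76), Gnb2l1 (-0.72), Eef1a1, Rps19 and Rps4x, all genes of the ribosome or of translation. The summed member level was lower in cells with more transcripts (Spearman -0.36 with total transcripts, -0.54 to -0.13 within libraries), and the part of depth was not tested. Over the 12 sums of library and population (BEneg, TEneg and TEpos), the genes most like the mean of the members on a log2(level + 1) scale were Ccr2 (Pearson 0.99), Bin2, S100a8, Coro1a and Tyrobp, which all separate BEneg from tumour wells as the members do.

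The members were also set against monocyte genes in BEneg cells. Cells were split by transcripts of 6 measured monocyte genes (Ly6c2, Ccr2, Csf1r, Ms4a6c, Ms4a4c and Cx3cr1), a split made after the values had been seen: 24 BEneg cells had none, 25 had at least 2 and 11 had 1. Il1b stood at 48.1 ± 24.6 transcripts per 10000 in cells with none and 8.80 ± 4.28 in cells with at least 2, 5.01 times as high from pooled transcripts. Pygl stood at 7.77 ± 2.01 with none and 3.57 ± 1.67 with at least 2. For Il1b and Pygl, 2 of 8 members, every library was higher in cells with none than any library in cells with at least 2, a pattern of 2.65% of the 490 genes. Mmp9 (15.4 ± 7.26 with none, 9.07 ± 1.12 with at least 2), Slfn4 (8.87 ± 5.20 with none, 4.62 ± 4.83 with at least 2) and 1100001G20Rik (26.3 ± 17.4 with none, 14.8 ± 10.8 with at least 2) had a higher mean in cells with none, and Retnlg (63.4 ± 40.9 with none, 70.99 ± 22.2 with at least 2), Ccl6 (16.2 ± 5.68 with none, 17.4 ± 5.39 with at least 2) and Alox5ap (16.5 ± 10.7 with none, 22.2 ± 8.49 with at least 2) had a lower mean in them. For these 6 genes the difference was smaller than the larger of the SDs between libraries. Detection of Retnlg differed from its mean level, at 21 of 24 cells with none (87.5%) and 14 of 25 with at least 2 (56%). Over the 60 BEneg cells, Retnlg had a Spearman correlation of -0.36 with the monocyte gene level. Alox5ap was seen in 14 of 24 cells with none and 23 of 25 with at least 2, and Ccl6 in 15 and 21. Lyz2, the lysozyme gene abundant in monocytes, stood at 11.1 ± 9.43 in cells with none and 127 ± 29.95 in cells with at least 2. Cells with none were also shallower, with a median of 708 transcripts against 1310, and the part of depth was not tested.

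**Figure D5:**
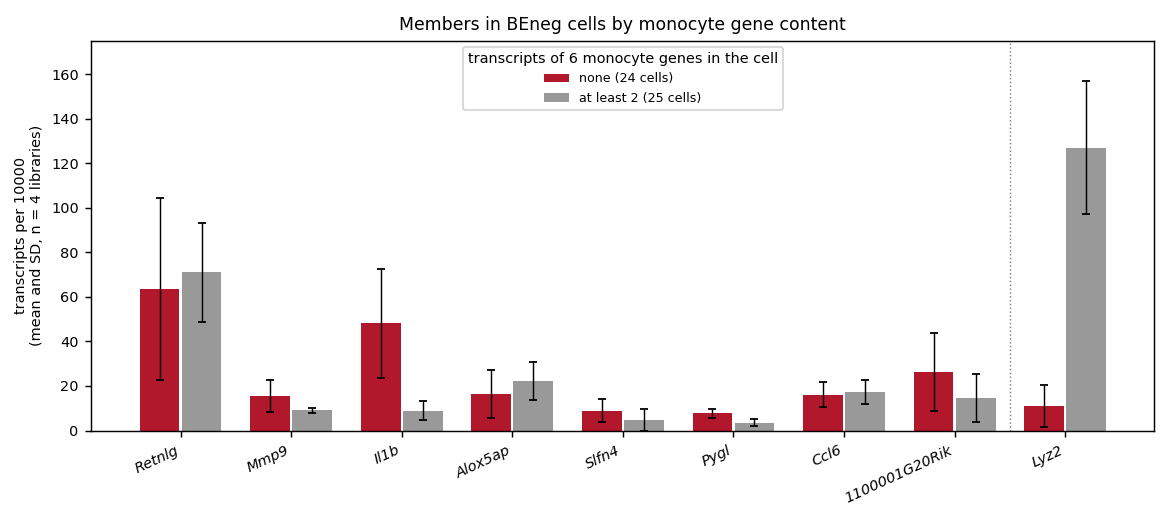
Level in transcripts per 10000 (mean and SD over 4 libraries) of each member and of Lyz2 in 24 BEneg cells with no transcript and 25 with at least 2 transcripts of 6 monocyte genes. Il1b is high in the cells with none, Lyz2 in the others, and Retnlg, Alox5ap and Ccl6 have overlapping bars.

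BEpos cells, from 1 library, carried the members at lower levels. Within library 1 the summed level was 36.2 per 10000 in BEpos and 196 in BEneg, a ratio of 0.184 (counting interval 0.158 to 0.214), and 4.37 in TEpos, a ratio of 8.30 (5.54 to 12.9). With 1 library there is no test of either difference. Per cell the BEpos level ran from 0 through a median of 20.7 to 183, and 1 of 20 cells lay above the BEneg median. Retnlg took 46.2% of member transcripts in BEpos (40.3% to 52.4%) and 43.9% in BEneg (41.2% to 46.6%). Il1b took 18.97% in BEpos (14.6% to 24.3%) and 11.6% in BEneg (9.94% to 13.5%), but BEneg libraries 1 to 4 gave 11.3%, 7.99%, 19.4% and 16.2%, a range that holds the BEpos share. All 20 BEpos cells, and so also the 12 with 3 or more members, held at least 2 transcripts of 17 measured T, NK and B cell genes. The lowest count was 3 and the median 17. At least 2 such transcripts were found in 5 of 60 BEneg cells. The BEneg cells were shallower, with a median of 819 transcripts against 3803, and the part of depth was not tested. T and NK cell genes such as Cd3d summed to 33.2 and B cell genes such as Cd79b to 26.2 per 10000 in BEpos, so members and lymphocyte genes were read from the same wells, and what part wells with more than 1 cell have in this was not tested.

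In tumour wells the members were traces. TEneg cells held 44 member transcripts and TEpos cells 71, against 1326 in BEneg. A member was seen in 28 of 69 TEneg cells and 42 of 71 TEpos cells, with 1 or 2 transcripts in 25 and 37 of these. No TEneg or TEpos cell reached the BEneg median, and the highest levels in any cell were 24.5 per 10000 in TEneg and 37.3 in TEpos. The cell with most member transcripts in TEneg, 6 transcripts of 4 members, was the well with 61227 transcripts, where they made up 0.984 per 10000. Retnlg took 40.9% (26.3% to 56.8%) of member transcripts in TEneg and 39.5% (28.03% to 51.7%) in TEpos, intervals that include its share in BEneg. Per 100 transcripts of S100a8 and S100a9 there were 15.3 ± 7.11 member transcripts in TEneg and 20.03 ± 7.36 in TEpos, against 27.1 ± 5.31 in BEneg and 20.4 in BEpos. For 7 of 8 genes fewer TEneg than TEpos cells held a transcript.

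Between TEneg and TEpos no member was called. Of 490 genes tested with edgeR, 6.33% were called, and the count for the members was 0 of 8, with 0 at an unadjusted p under 0.05 and 0 with DESeq2 or limma. The members passed the filter through their BEneg sums. They had 0 to 18 transcripts each in TEneg and 2 to 28 in TEpos. Such counts left most of them little room to be called, so nothing is read from the 0. TEneg cells held 18 Retnlg transcripts and TEpos cells 28. The log2 fold change was -0.52 with an SE of 0.45 (adjusted p = 0.564 by edgeR), and TEneg was the lower in 3 of 4 libraries. Slfn4 (-1.83, SE 1.29, adjusted p = 0.489) and Pygl (-2.04, SE 1.66, adjusted p = 0.528) had the widest gaps, from 1 and 0 transcripts in TEneg against 6 and 2 in TEpos. Alox5ap leaned the other way at 0.70 (SE 1.003, adjusted p = 0.744). In all 6 of 8 were lower in TEneg, with a median of -0.55 against -0.01 over all genes tested. With so few tumour transcripts, and with members that passed the filter through BEneg, no shared direction is read from this. Without the large TEneg well the fold changes of all 8 were higher. Retnlg then stood at -0.11, Il1b and 1100001G20Rik each at -0.17, Slfn4 at -1.40 and Pygl at -1.80. Mmp9 stood at 0.17, Ccl6 at 0.41 and Alox5ap at 0.71. The TEneg and TEpos sums overlapped for all 8 genes, while 12.4% of the tested genes did not overlap. The SEs ran from 0.45 to 1.66 on the log2 scale.

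The summed level was lower in TEneg than in TEpos in 4 of 4 libraries, with a pooled ratio of 0.642 (counting interval 0.430 to 0.948). The share of cells with a member was also lower in each, at 52.6%, 50%, 21.4% and 28.6% in TEneg libraries 1 to 4, against 72.2%, 63.2%, 50% and 50% in TEpos. The groups overlapped in both measures. The pooled ratio leans on the large TEneg well, with 61227 of the 109892 transcripts of TEneg library 2. That well held 6 of the 44 TEneg member transcripts, and the pooled ratio without it was not computed. Since the members were chosen from these data, no p is given for a sum over them, and the part of depth, lower in TEneg cells, was not tested.

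Tumour cells of experiment (i), all sorted as positive for Ecad, gave a separate background. Library 1 held 10 member transcripts among 438102 in 95 wells (0.228 per 10000), 4 of Pygl, 3 of Ccl6, 2 of Alox5ap and 1 of Retnlg. Library 2 held 21 among 69976 in 65 wells (3.02 per 10000), with 7 each of Alox5ap and Ccl6, 5 of Il1b, and 0 of Retnlg, Slfn4 and 1100001G20Rik. A member was seen in 7 of 95 and 7 of 65 wells. Levels of the 2 experiments were not normalised together and are set side by side only.

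Wells under 500 transcripts, left out above, carried the same genes. The 36 such BEneg wells held 221 member transcripts per 10000, with a member in 33 of them, and the 4 BEpos wells held 120. The 27 TEneg wells held 10.5 and the 25 TEpos wells 2.94 per 10000, from 7 and 1 transcripts. In the low BEneg wells Il1b stood at 57.8, Ccl6 at 23.6, Slfn4 at 21.1 and Mmp9 at 18.6 per 10000, above all 4 sums of used BEneg cells. Retnlg (62.1), 1100001G20Rik (18.6) and Alox5ap (16.2) were within the range of those sums, and Pygl (3.24) was below it.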

How the data were processed

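The 8 members, the gene lists and the comparisons were chosen with earlier results of these data known. The authors deposited estimated transcript counts for each gene in each well, with no scaling of one well to another. BWA 0.6.2-r126 and mm10 are named in the submitters' processing notes. How the authors counted reads is not stated in any source used. Every deposited estimated count equals 256 × ln(256/(256 − k)) for a whole number k, the number of molecular barcodes seen, to within 3.13e-13. The rule for reads shared by near-identical genes is not stated either, which leaves Lyz1 and Lyz2, Slfn1 and Slfn4 and the WAP genes uncertain. Spike-ins were left out.

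Wells of at least 500 transcripts were summed per library and population where at least 3 were left, and rounded. BEneg, TEneg and TEpos sums entered 1 fit in R 4.3.3 with library as a block, by the quasi-likelihood test of edgeR 4.0.16 after filterByExpr and TMM, and Benjamini-Hochberg adjusted p under 0.05 over 490 genes was called. The fit was tested on simulated data. Changes were placed there only in genes with higher expected counts than the members had in tumour sums, so nothing follows for the member fits. DESeq2 1.42.0 and limma 3.58.1 were alternatives. Populations are paired by design, each library holding wells of all 3, and deviations of 2 populations in 1 library had correlations of 0.0613 to 0.353. Sums of 1 population differed between libraries by more than sampling noise (chi-square per degree of freedom 1.61 to 3.14), so none was a copy.

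A level is transcripts per 10000. Thinning gives the hypergeometric chance of a transcript among 500. Each well was meant to hold 1 sorted cell, and no doublet caller was run. The genes named were all members, the 5 genes most like them over the 12 sums, the 5 highest and 5 lowest over BEneg cells, list genes called between TEneg and TEpos, and the 3 with most BEneg transcripts of each list; the marker genes with low counts, Timp1, Pygb, Pygm, Alox5, Lta4h, Il1r2, Krt8 and the genes of the chromosome 11 span were named after their values were seen. The list of leukotriene genes also held Coro1a, an actin-binding leukocyte protein.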

Additional observations from a re-analysis of the deposited data

Results flagged for a closer look

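Each group of 4 libraries was checked for 1 library far from the others (gap to the nearest over the whole range, above Dixon's 95% critical value), in 26 groups with any spread. By chance about 1 in 20 groups is marked if values are normally distributed. Low counts do not meet this, and a group with a transcript in 1 library alone is always marked. In BEneg, Ccl6 was low in library 3 at 11.8 transcripts per 10000. In TEneg, Slfn4 was high in library 1 at 0.269, the only TEneg library with a transcript, and 1100001G20Rik low in library 2 at 0.274. In TEpos, Retnlg was high in library 4 at 2.56, Alox5ap high in library 1 at 0.504, the only TEpos library with a transcript, and Ccl6 high in library 1 at 0.840. The tumour values rest on 1 to 7 transcripts each.

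Library 3 of experiment (i), labelled as Ecad-positive tumour cells, was in no comparison, since 95 of its 96 wells were under 500 transcripts. It held 78 member transcripts among 14046, or 55.7 per 10000, above libraries 1 and 2 of the same experiment (0.228 and 3.28 over all wells). All 8 genes were present, led by Il1b with 21 transcripts and Retnlg with 14, in 41 wells. S100a8 and S100a9 had 427 transcripts there and epithelial genes 12.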

How the results depend on the processing

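No member was called between TEneg and TEpos under any of the 12 alternatives, where low counts again left little room for a call. With at least 1000 transcripts per well Retnlg and Il1b alone of the 8 passed the filter. The count of all called genes, 31, was 20 with no replicate block (the libraries pair the samples by design), 17 with at least 1000 transcripts per well, 99 with no filter on low counts, 55 without the large TEneg well, and 19 to 42 without 1 library (19 without library 1); the cause was not tested. Uncalled member differences changed sign in places. Mmp9 stood at 0.22 with at least 250 transcripts per well, at 0.17 without the large TEneg well and between -1.10 and 0.93 without 1 library. Ccl6 stood at -0.11 with limma on means of cells, at -0.25 with no filter and between -0.025 and 0.22 without 1 library. Alox5ap stood at -0.0063 with limma, and 1100001G20Rik between -0.92 and 0.16 without 1 library. Over all alternatives the adjusted p of Retnlg ran from 0.528 to 1.

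The log2 ratio of the mean summed levels was 5.95 for BEneg over TEneg and 5.47 for BEneg over TEpos, and ran from 5.71 to 6.19 and from 5.28 to 5.67 without 1 library. With at least 1000 transcripts per well it was 5.39 and 5.02. The share of BEneg cells with at least 3 members ran from 73.9% to 86.04% without 1 library and was 65.4% after thinning. The mean share of cells with any member, 38.2% in TEneg and 58.8% in TEpos, was 13.8% and 23.2% after thinning to 500 transcripts, which lowers detection by construction, and ran from 33.3% to 43.7% and from 54.4% to 61.8% without 1 library. The BEpos level was 36.2 with at least 1000 and 36.4 with at least 250 transcripts per well, settings chosen after the data had been seen. The tumour traces rest on 44 TEneg and 71 TEpos transcripts.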
